A study of Mus musculus with 60 samples.

Results

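The regions described here are the H3K27ac peaks of mouse dorsal root ganglia that lay in open chromatin, compared between sciatic nerve axotomy and a sham operation on the same nerve. A peak of either H3K27ac list was kept when it overlapped, by at least 1 base pair, an ATAC-seq peak of any of the 4 surgeries of the series. This left 43100 of 75824 peaks after axotomy and 25361 of 43803 after sham surgery, together 68461 of 119627 H3K27ac peaks of these lists and of 1658065 peaks in the 16 lists of the series. A kept peak was called a promoter peak when it came within 1 kb of a transcription start of a protein-coding gene, and a distal peak otherwise. It was called gained when it was in the axotomy list and overlapped no H3K27ac peak, open or not, of the sham list, and lost in the reverse case.

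All mice were C57BL/6, 6 to 8 weeks old, and their lumbar ganglia (L4 to L6) were taken 24 hours after surgery. The groups were sciatic nerve axotomy (SNA), sham surgery on the sciatic nerve (Sham), dorsal column axotomy of the spinal cord (DCA) and laminectomy (Lam), which opens the spine and served here with Sham as a control operation. Each H3K27ac list came from 2 chromatin samples of 10 mice each, and each ATAC-seq list from 3 samples of 1 mouse each, and the replicates of a surgery were pooled before peaks were called. A list therefore has no replicate error, no difference between surgeries could be tested, and "gained" and "lost" are statements about 1 list against another. Each share below carries a 95% Wilson interval where it is given, which covers counting error only. As a background, the same shares were measured between Lam and Sham and between DCA and Lam.

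Acetylation of lysine 27 of histone H3 is placed by the enzymes p300 and CBP and marks active promoters and enhancers, where it is read by bromodomain proteins. Dorsal root ganglia hold the cell bodies of sensory neurons, wrapped by satellite glia and accompanied by Schwann cells, macrophages and vessels. A cut of the peripheral branch of these neurons starts a regeneration programme in which AP-1, ATF, STAT3, SOX11 and KLF factors are known to act, whereas a cut of the central branch in the dorsal columns starts little of it.

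Sequence just before the start is shown for 3 promoters with a gained peak and for 3 with a lost peak. At each of them the peak covers most or all of the 250 bases shown. Mef2a was among the strongest gained promoter peaks, although Sham had another H3K27ac peak within 1 kb of the start shown. Prtn3 was gained in H3K27ac, H3K9ac and ATAC-seq alike. Ncmap, a gene of myelinating Schwann cells, had the mark after SNA and in none of the other 3 H3K27ac lists. Edc3 and Pld2 were among the strongest lost promoter peaks, and Bpi was lost in all 3 of those assays. Each run holds the 250 bases before the start, 5′ to 3′ on the strand of the gene, from RefSeq promoters of the GRCm38.p6 build. Capitals mark matches, on either strand, to TGANTCA (AP-1), TGACGTCA (CRE), CCAAT (the NF-Y box), TTCCNGGAA (STAT) or GGGGCGGGG (SP/KLF).
Mef2a chr7:67372859-67373108, - strand: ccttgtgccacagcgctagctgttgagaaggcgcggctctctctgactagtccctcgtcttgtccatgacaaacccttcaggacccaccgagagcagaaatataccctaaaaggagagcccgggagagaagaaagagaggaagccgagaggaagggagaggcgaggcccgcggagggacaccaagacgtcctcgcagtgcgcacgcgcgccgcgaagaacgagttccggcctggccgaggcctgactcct
Prtn3 chr10:79879417-79879666, + strand: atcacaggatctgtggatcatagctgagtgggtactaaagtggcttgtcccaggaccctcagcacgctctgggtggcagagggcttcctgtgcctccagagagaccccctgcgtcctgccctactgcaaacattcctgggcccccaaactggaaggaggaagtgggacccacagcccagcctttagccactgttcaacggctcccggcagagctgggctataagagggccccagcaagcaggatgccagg
Ncmap chr4:135385673-135385922, - strand: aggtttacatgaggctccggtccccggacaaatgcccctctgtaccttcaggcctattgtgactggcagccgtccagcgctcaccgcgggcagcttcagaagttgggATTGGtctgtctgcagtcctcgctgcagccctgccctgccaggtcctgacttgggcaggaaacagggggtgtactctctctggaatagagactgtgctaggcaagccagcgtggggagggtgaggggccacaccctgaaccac
Edc3 chr9:57708319-57708568, + strand: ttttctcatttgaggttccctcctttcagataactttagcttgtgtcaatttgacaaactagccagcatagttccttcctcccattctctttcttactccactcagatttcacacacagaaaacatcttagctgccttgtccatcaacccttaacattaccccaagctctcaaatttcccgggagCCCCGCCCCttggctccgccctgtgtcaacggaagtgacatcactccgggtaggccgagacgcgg
Bpi chr2:158257991-158258240, + strand: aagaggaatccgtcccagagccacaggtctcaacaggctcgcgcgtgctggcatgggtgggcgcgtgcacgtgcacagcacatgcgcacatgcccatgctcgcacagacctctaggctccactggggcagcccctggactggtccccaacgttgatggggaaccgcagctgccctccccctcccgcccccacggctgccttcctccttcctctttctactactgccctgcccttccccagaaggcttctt
Pld2 chr11:70539814-70540063, + strand: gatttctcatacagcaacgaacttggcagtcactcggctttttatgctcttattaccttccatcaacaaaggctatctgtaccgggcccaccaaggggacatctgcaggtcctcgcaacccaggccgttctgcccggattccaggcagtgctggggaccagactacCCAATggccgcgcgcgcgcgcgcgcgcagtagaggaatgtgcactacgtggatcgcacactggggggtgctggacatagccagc
The gained peaks covered 224 of these bases at Mef2a, 226 at Prtn3 and 250 at Ncmap, and the lost peaks covered 224 at Edc3, 250 at Bpi and 250 at Pld2. Matches were few: a CCAAT box at Ncmap and at Pld2 and an SP/KLF match at Edc3, with none at Mef2a, Prtn3 or Bpi.

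Over all genes, H3K27ac in open chromatin was found at more places after SNA than after Sham, at promoters and away from them. Of 16425 open promoter peaks of SNA, 6940 were gained (42.3%, interval 41.5% to 43.0%), and of 26675 open distal peaks 16082 were gained (60.3%, interval 59.7% to 60.9%). Of 9946 open promoter peaks of Sham, 1004 were lost (10.1%, interval 9.52% to 10.7%), and of 15415 open distal peaks 5321 were lost (34.5%, interval 33.8% to 35.3%). These shares stand against a large background. Between Lam and Sham, both without a cut axon, 38.6% of the open promoter peaks and 53.7% of the open distal peaks of Lam were absent from Sham, and 9.91% and 25.7% of those of Sham were absent from Lam. In the spinal pair, 11.2% of the promoter and 25.5% of the distal peaks of DCA were absent from Lam, and 31.9% and 54.3% of those of Lam were absent from DCA. The lost promoter share thus lay within counting error of the Lam background. The gained promoter share and both distal shares lay above that background by more than counting error (intervals for Lam against Sham of 37.8% to 39.4% at promoters, 53.1% to 54.3% at distal places, and up to 26.4% for the reverse at distal places). For the gained shares this excess ended when the queried list was limited to peaks with a −log10 q of 5 or more, which gave 31.4% against 31.4% at promoters and 34.9% against 35.0% at distal places. With that limit on both lists the gained promoter share was 51.1% against 50.8%. The gained distal share was then 60.1% against 56.3%, so at distal places the excess ended only with the limit on the queried list.

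**Figure D1:**
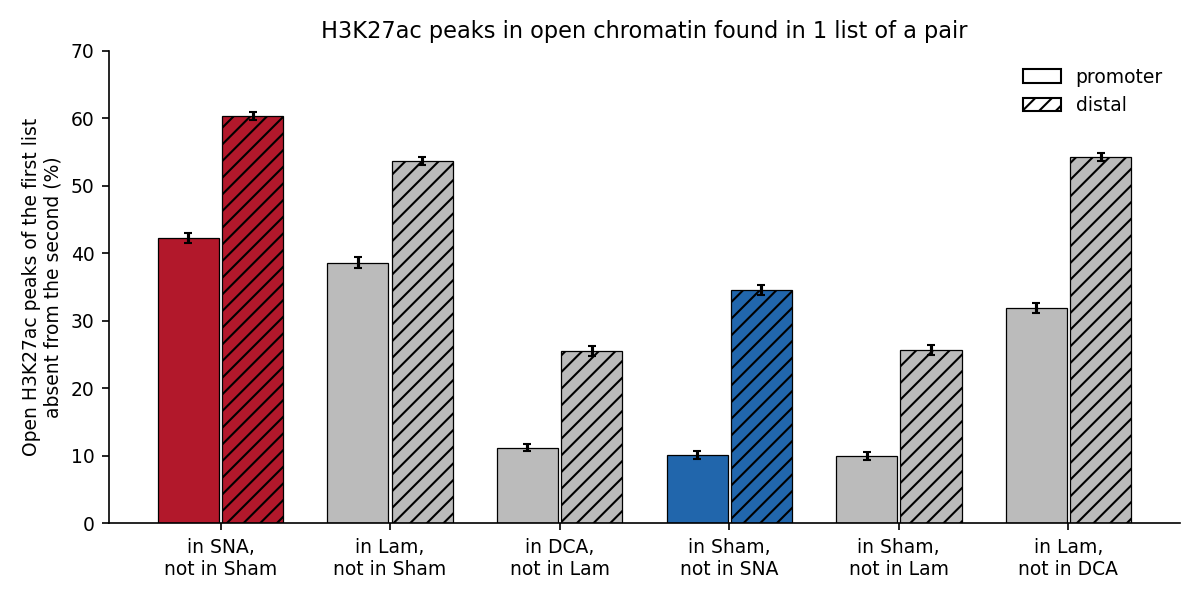
Share of open H3K27ac peaks of the first-named list that overlapped no peak of the second, for promoter (plain) and distal (hatched) peaks; whiskers are 95% Wilson intervals. The SNA and Sham bars (42.3% and 60.3% gained, 10.1% and 34.5% lost) stand beside grey bars for surgeries that do not include a sciatic cut, which reach 53.7% and 54.3% for distal peaks of Lam.

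The lists differ in length, and length moves with the gains. The 4 H3K27ac lists held 43803 peaks (Sham), 75824 (SNA), 67311 (Lam) and 46489 (DCA), so each large share of absent peaks belongs to a longer list queried against a shorter one. Whether a longer list reflects more acetylated places or a deeper library cannot be told apart, since the total reads per library are not given in the sources used here. With the open peaks of both lists limited to equal numbers by their −log10 p, the gained shares were 36.6% at promoters and 47.1% at distal places, against 34.0% and 41.8% for Lam against Sham measured in the same way. Under that limit the lost shares were 21.8% and 52.7%, against 20.5% and 43.4%.

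Gained peaks were narrower and lower than peaks the lists shared. The median gained promoter peak was 432 bp wide with 22 reads at its summit, against 696 bp and 30 reads for the SNA peaks that overlapped a Sham peak. The median gained distal peak was 387 bp wide with 18 reads, against 760 bp and 24 reads for shared ones. Read numbers at summits were recovered from the deposited fold enrichment and −log10 p, and they compare peaks within a list only. The peaks of each list were sorted by −log10 p into 5 classes of equal size. In the weakest class of the SNA promoter peaks 64.2% were gained, and in the strongest class 525 of 3285. For distal peaks 79.7% of the weakest class and 1334 of 5335 in the strongest class were gained (interval 23.9% to 26.2%), where Lam against Sham gave 14.7% (interval 13.8% to 15.7%).

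Lost distal peaks had another profile. From the weakest class of the Sham distal peaks upward, the share absent from SNA went 38.4%, 29.1%, 24.3% and 21.4%, and in the strongest class it was 59.3% (interval 57.6% to 61.0%). Against Lam the strongest class of the same Sham peaks was absent in 11.8%. At promoters 199 of 1989 peaks of the strongest class were absent from SNA and 42 from Lam. No open peak of the SNA list exceeded a −log10 p of 59.6, whereas the highest values were 278 in Sham, 199 in Lam and 190 in DCA. The strong Sham peaks that were missing after SNA carried little H3K9ac: of 1829 such distal peaks, 1.69% overlapped a Sham H3K9ac peak and 37.2% a Sham ATAC-seq peak, against 73.8% and 71.7% of the 1254 strong distal peaks that SNA shared. They were present in the other H3K27ac lists, 80.9% of them in Lam and 81.3% in DCA. The SNA list thus stood apart from the other 3 H3K27ac lists at these places, and the part of that library in the lost calls was not tested. The strongest gained distal peaks looked different, as 69.4% of the 1334 overlapped a Sham H3K9ac peak and 87.8% an SNA H3K9ac peak.

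**Figure D2:**
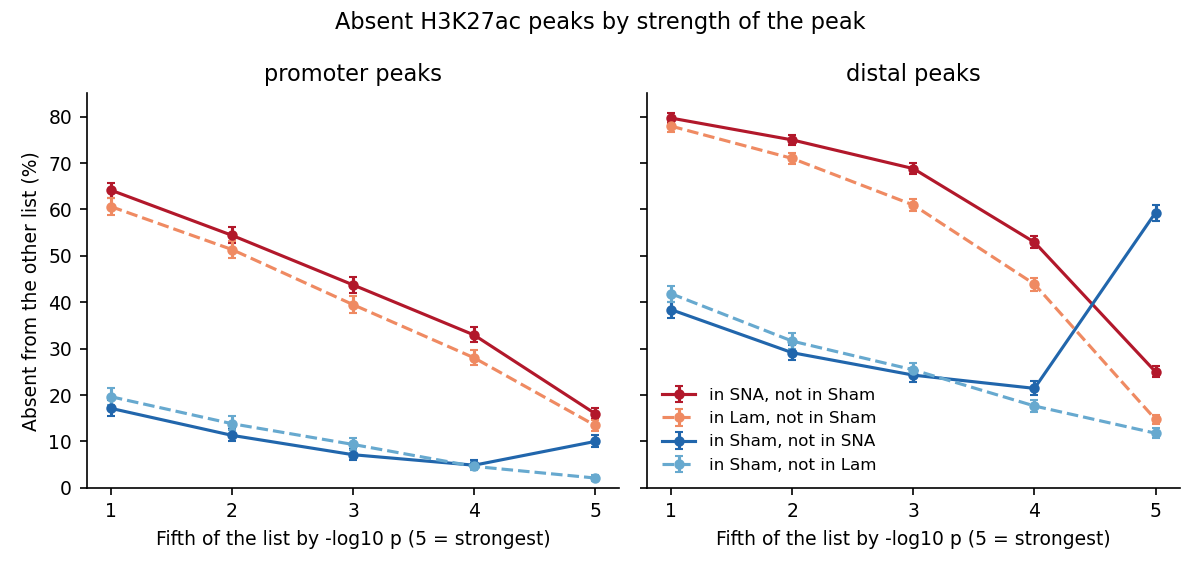
Share of open promoter (left) and distal (right) H3K27ac peaks absent from the other list, in 5 classes of rising −log10 p within the queried list; solid lines compare SNA with Sham, dashed lines Lam with Sham, and whiskers are 95% Wilson intervals. The lines fall from weak to strong peaks except for Sham peaks absent from SNA, which turn up to 59.3% in the strongest distal class.

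**Figure D3:**
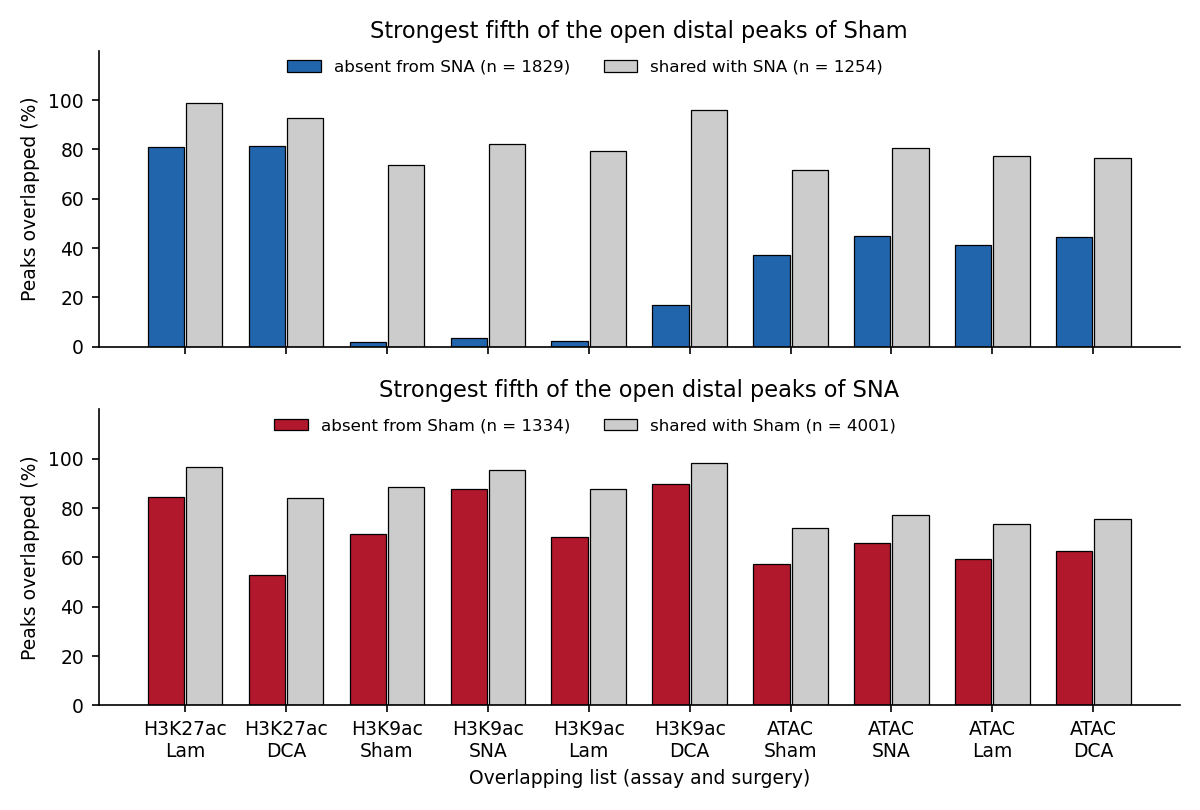
Share of the strongest class of open distal H3K27ac peaks that overlapped a peak of each other list, for peaks absent from (coloured) and shared with (grey) the other surgery of the pair. Sham peaks absent from SNA (upper panel, n = 1829) were found in the Lam and DCA H3K27ac lists but overlapped the Sham H3K9ac list in only 1.69%.

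Most gained promoter peaks were also found after surgeries that spare the sciatic nerve. Of the 6940, 68.3% overlapped a Lam peak, 44.9% a DCA peak and 23.8% (1649 peaks) neither. Of the 16082 gained distal peaks, 49.9% overlapped a Lam peak, 24.2% a DCA peak and 43.5% (7002 peaks) neither. Of the lost peaks, 27.4% of the promoter ones (275) and 38.6% of the distal ones (2055) were also in neither. Among peaks that SNA shared with Sham, 4.07% at promoters and 9.90% at distal places were in neither.

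Counted by gene, 2782 of 21887 protein-coding genes (12.7%) had an open H3K27ac peak within 1 kb of a start in SNA and no H3K27ac peak there in Sham, and 399 (1.82%) had the reverse. Of these, 530 and 113 were genes with no strand given, where a peak at either end of the gene counted. Both lists marked 8219 genes, counting those where the peak of 1 list lay outside open chromatin, and neither marked 10487. The background by gene was 12.4% in Lam and not in Sham, 1.74% in Sham and not in Lam, 2.06% in DCA and not in Lam, and 9.76% in Lam and not in DCA. The number of genes with a new promoter mark after SNA was thus close to the number between the control surgeries. Of the 2782 genes, 1357 also had an open promoter peak in both Lam and DCA, 838 in Lam without DCA, 169 in DCA without Lam and 418 in neither. Of the gained promoter peaks, 48.2% (3344) belonged to a gene with another H3K27ac peak near a start in Sham. Of the lost promoter peaks, 62.3% (625) belonged to a gene with another H3K27ac peak near a start in SNA. Single starts with known strand were also classed in this way, and 2827 were marked in SNA alone. The 250 bases before these starts had a median GC content of 60.4%. It was 61.2% at starts where both lists had a peak and 48.8% where neither had.

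The X chromosome differed from the others at promoters. Of 278 open promoter peaks of SNA on X, 205 were gained (73.7%, interval 68.3% to 78.6%), against 41.7% on the autosomes. Between Lam and Sham the same shares were 66.3% on X and 38.2% on the autosomes. Sham had 82 open promoter peaks on X, Lam 178 and DCA 119. X held 0.824% of the open promoter peaks of Sham and 1.69% of those of SNA. Gained peaks at genes on X, such as L1cam and Hdac6 below, stand against this larger background. Counted by gene the shares were closer. Of 966 genes on X, 14.5% were marked in SNA alone (interval 12.4% to 16.9%), against 12.8% on the autosomes, with 75.9% and 46.0% marked in neither list.

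The 6 strongest gained promoter peaks were all present in Lam and DCA too. The peak near the starts of Tigd5 and Eef1d, a subunit of the translation elongation factor, held 65 reads at its summit (fold enrichment 14.7). The peak near the starts of Iscu, a scaffold for iron-sulphur clusters, and Sart3, a splicing factor, also held 65 reads. At Klf7, a zinc finger factor known to promote axon growth, the gained peak (chr1:64121987-64122326, 62 reads, fold 14.3) lay upstream of the start, in a gap between 2 Sham peaks. The remaining 3 were at Epc2 (60 reads), a subunit of a histone acetyltransferase complex, Mef2a (63 reads), an activity-regulated transcription factor, and Rabggtb (50 reads), which attaches lipid anchors to Rab proteins. At Mef2a, Sham had another H3K27ac peak within 1 kb of the start. ATAC-seq peaks were present at all 6 in all 4 surgeries, and H3K9ac was already present in Sham at 5 of them, all but Epc2.

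Gained promoter peaks that no other H3K27ac list held were led by Trafd1, a feedback inhibitor of innate immune signalling, where the peak (chr5:121384433-121385368) held 45 reads at a fold of 8.79. Hdac4, a class IIa histone deacetylase, came next with 42 reads, although other peaks near its start were present in Lam and DCA. Tmed5 and Ccdc18 shared a peak of 43 reads, and Rnf146, a ubiquitin ligase, had 37. Supv3l1, a mitochondrial RNA helicase, had 34 reads, as had Dgat1, which makes triglycerides. At these 6 promoters ATAC-seq peaks were present in all 4 surgeries, and Sham had an H3K9ac peak at 5, all but Rnf146.

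At 103 gained promoters (1.48%) H3K9ac and ATAC-seq also had a peak in SNA and none in Sham, and at 12 they went the other way. The strongest was at Zfp36l2, an RNA-binding protein that speeds messenger decay (chr17:84186952-84187273, 28 reads), which Lam and DCA also marked with H3K27ac. Rara, the retinoic acid receptor alpha, had a gained peak of 28 reads (chr11:98938084-98938744) with an ATAC-seq peak in SNA as the only surgery. Sham had another H3K27ac peak within 1 kb of the Rara start nearest to this peak. Ndufb11 and Rbm10 on X shared a gained peak of 24 reads, Aktip had 25 and L3mbtl3, a reader of methylated lysine, 26. Prtn3, proteinase 3 of neutrophils, had 23 reads at its gained peak, and its place held H3K27ac, H3K9ac and ATAC-seq peaks in SNA and in no other surgery.

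Lost promoter peaks were few, and the strongest were tall in Sham. Edc3, an enhancer of messenger decapping, had 164 reads at its Sham summit (chr9:57708345-57709356, fold 35.7) and no overlapping peak in SNA. Ifitm2, an interferon-induced membrane protein, had 151 reads, Tpst2, a tyrosine sulphotransferase, 148, and the shared start region of Dgkq and Idua 137. Eef2kmt had 130 reads and Pld2, a phospholipase D, 121. All 6 were present in Lam and DCA, none overlapped an H3K9ac peak of Sham or SNA, and ATAC-seq peaks were present in both Sham and SNA at each. Their absence from SNA was therefore not accompanied by a change of the ATAC-seq call. At Ifitm2, Tpst2 and Pld2, SNA had another H3K27ac peak within 1 kb of a start.

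Only 6 lost promoter peaks also lost H3K9ac and ATAC-seq, while 17 had gained both. Bpi, a bactericidal protein of neutrophils, had the tallest of the 6 with 55 reads in Sham (chr2:158257567-158258306, fold 14.3). The others were Igsf9b with 18 reads, Ccdc60 with 18, Efnb2, a ligand of Eph receptors in axon guidance, with 17, Slc17a5, the lysosomal sialic acid carrier, with 19, and 1700007K13Rik with 13. Ccdc60 was the only one of these with a peak in neither Lam nor DCA. Efnb2 had another open promoter peak in SNA.

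Among genes tied to axon regeneration, 16 of 40 carried promoter H3K27ac in both lists, 3 in SNA alone, 2 in Sham alone and 19 in neither. The share in SNA alone was 7.50% of the list, against 12.7% of all genes. Atf3, Jun, Klf6, Klf7, Smad1, Stat3, Socs3 and Cebpd were among those with promoter peaks in both lists. Atf3 is the axotomy-induced factor and Jun its AP-1 partner, and the calls at their promoters did not differ between any of the 4 H3K27ac lists. Gap43, Sox11, Sprr1a, Gal and Npy, genes known to be induced by axotomy, had no open promoter peak in any of the 4 H3K27ac lists.

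The 3 regeneration genes marked in SNA alone were L1cam and Chl1, cell adhesion molecules of growing axons, and Tnfrsf12a, the TWEAK receptor. Chl1 had a peak of 33 reads in SNA and was marked in Lam and DCA as well. L1cam had 14 reads (fold 3.48) and was marked in DCA but not in Lam, with H3K9ac in SNA and DCA only. Tnfrsf12a had 2 gained peaks of 16 and 19 reads and was marked in Lam, and its ATAC-seq peak was present in SNA and DCA only. The 2 marked in Sham alone, in no other list, were Basp1, a growth cone protein, with 15 reads, and Cebpb, a stress-response factor, with 20 reads, and neither had an H3K9ac peak in Sham or SNA.

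AP-1, ATF and CREB factors were nearly all marked: 20 of 26 genes in both lists, 4 in SNA alone, 0 in Sham alone and 2 in neither. The SNA-alone share of 15.4% stood beside 12.7% of all genes, and for Lam against Sham the list gave 4 genes as well. Atf2 and Creb1, CREB-family factors activated by phosphorylation, each reached 35 reads in SNA. Atf5, a stress-response factor, reached 20 reads and Maff, a small MAF protein, 13 to 14. All 4 had an H3K9ac peak and an ATAC-seq peak in Sham, and all 4 had promoter H3K27ac in Lam.

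Of 24 genes of cytokine and JAK-STAT signalling, 15 were marked in both lists, 2 in SNA alone, 1 in Sham alone and 6 in neither. The SNA-alone share of 8.33% was below the 12.7% of all genes, and Lam against Sham gave 3 genes of the list. Stat5b, a signal transducer of growth hormone and cytokines, had 3 gained promoter peaks, the strongest with 36 reads at a fold of 8.48. Jak1, the kinase of the gp130 receptors, had 20 reads in SNA and was also marked in Lam. Socs2, a feedback inhibitor, had 27 reads in Sham and no promoter peak in SNA or DCA, and was marked in Lam. The ligands Il6, Lif, Cntf and Clcf1 had no open promoter peak in SNA or Sham.

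Markers of cell types were read in the same way, since the ganglion is a mixture and a mark in more cells of a type cannot be told apart from more mark per cell. Of 30 sensory neuron genes, 21 had no open promoter peak in either list, among them Calca, Tac1, Trpv1, Scn9a, Scn10a, Nefl and Isl1. Of these named genes, Calca had such a peak in Lam, Trpv1 in Lam and DCA, and Scn9a in DCA. The others named had none in any of the 4 lists. Of 24 glial genes, 14 were marked in both lists, Sox10 and Erbb3 among them. Of 24 macrophage genes, 20 were marked in neither, with Aif1, Csf1r, Cx3cr1, Itgam and Adgre1 all without a peak. The SNA-alone genes were Avil, Piezo2, Prph and Uchl1 of the neuronal list, Kcnj10, Ncmap, Ngfr and Sox2 of the glial list, Spi1 and Tlr4 of the macrophage list, and Acta2, Myh11 and Vwf of 20 vessel and fibroblast genes. In the last list Kdr, a receptor of vascular endothelial growth factor, was marked in Sham alone with 15 reads. These were 13.3% of the neuronal, 16.7% of the glial, 8.33% of the macrophage and 15.0% of the vessel and fibroblast list, beside 12.7% of all genes, and Lam against Sham gave 6, 2, 2 and 3 genes. No strand was given for Piezo2, Spi1, Tlr4, Myh11 and Vwf, so their gained peaks may lie at the far end of the gene and not at its start. The part of a change in cell types in the gained and lost calls was not tested.

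The 4 sensory neuron genes with a gained promoter mark had 14 to 24 reads at their strongest gained peaks, against a median of 22 over all gained promoter peaks. Avil, the actin regulator advillin, had 20 reads at its gained peak, was marked in no other H3K27ac list and had no H3K9ac peak in any surgery, and its ATAC-seq peak was present in SNA, Lam and DCA. Prph, the intermediate filament peripherin, had 20 reads and was also marked in Lam, and Uchl1, a neuronal deubiquitinase, had 14 and was marked in Lam and DCA. Piezo2, the mechanosensitive channel of touch, had 24 reads. Pou4f1, the transcription factor BRN3A of sensory neurons, went the other way with 17 reads in Sham and no peak in SNA, Lam or DCA.

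In the glial list, Ngfr, the low-affinity neurotrophin receptor that denervated Schwann cells express, had 2 gained peaks of 18 and 20 reads, and Ncmap had 1 of 18. Both were without a promoter peak in the other 3 H3K27ac lists, while ATAC-seq peaks were present in all 4 surgeries. Ngfr had an H3K9ac peak near a start in Sham and DCA but not in SNA, and Ncmap in Sham, SNA and DCA. Ngfr also lost both of its 2 Sham distal peaks and gained 0, while Ncmap gained 1 and lost 0. Kcnj10, the potassium channel of satellite glia, had 22 reads and was also marked in Lam. Sox2, a progenitor factor, had 20 reads and was marked in Lam and DCA. Mbp, a myelin protein, was marked in Sham and Lam alone, with 16 reads in Sham.

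Chromatin enzymes held the highest SNA-alone share of the 13 lists, 6 of 26 genes (23.1%) beside 12.7% of all genes, and 19.2% of the same list for Lam against Sham. They were the acetyltransferases Crebbp (20 reads at its gained peak) and Kat6a (31), the deacetylases Hdac4 (42), Hdac6 (17, on X) and Hdac9 (13), and the bromodomain protein Brd3 (29), and 5 of them, all but Hdac9, had an open promoter peak in Lam. Ion channel genes gave 4 of 41 in SNA alone, Scn2a (25 reads), Cacnb4 (20), Kcnq5 (16) and Kcna4 (13). Scn2a, Kcnq5 and Kcna4 were marked in no other H3K27ac list. Axon guidance genes gave 4 of 38, the netrin Ntn1 (22 reads), Sema3c (21), the ephrin receptor Epha5 (23) and Slit3 (19), of which Epha5, Slit3 and Ntn1 had an open promoter peak in SNA only, and Ephb2 was marked in Sham and Lam.

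Reference lists stood beside these. Ribosomal protein genes gave 5 of 36 in SNA alone (Rpl5, Rpl23, Rpl30, Rps19 and Rps20) against 7 for Lam against Sham, lipid synthesis genes 1 of 22 (Lss), and 24 epithelial genes, which ganglia are not known to express, gave no promoter peak in any of the 4 lists. Over all lists, 42 genes were marked in SNA alone and 8 in Sham alone. Of the 42, 34 also had an H3K27ac peak near a start, open or not, in Lam or DCA, 31 had an H3K9ac peak in Sham and 37 an ATAC-seq peak in Sham. The 8 with no such peak in any other H3K27ac list were Avil, Ngfr, Ncmap, Scn2a, Kcnq5, Kcna4, Epha5 and Slit3. Hdac9 and Ntn1 had such peaks outside open chromatin only. Of all 2782 SNA-alone genes, 418 (15.0%) had an open promoter peak in neither Lam nor DCA. Counted by peak and not by gene, 64.1% of all gained promoter peaks overlapped a Sham H3K9ac peak and 89.1% a Sham ATAC-seq peak. H3K27me3, the Polycomb mark of silent genes, had a peak within 1 kb of a start at 15 of the 42 genes in Sham and at 4 in SNA. The shares that follow count H3K27ac peaks that H3K27me3 overlapped, a narrower measure, and do not compare with these counts. Over all gained promoter peaks 6.25% had H3K27me3 in Sham only and 0.432% in SNA only. Over shared ones the shares were 4.53% and 0.264%, so the same direction was present where the H3K27ac call did not differ. At lost promoter peaks, too, 16.1% had H3K27me3 in Sham only and 0.697% in SNA only.

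**Figure D4:**
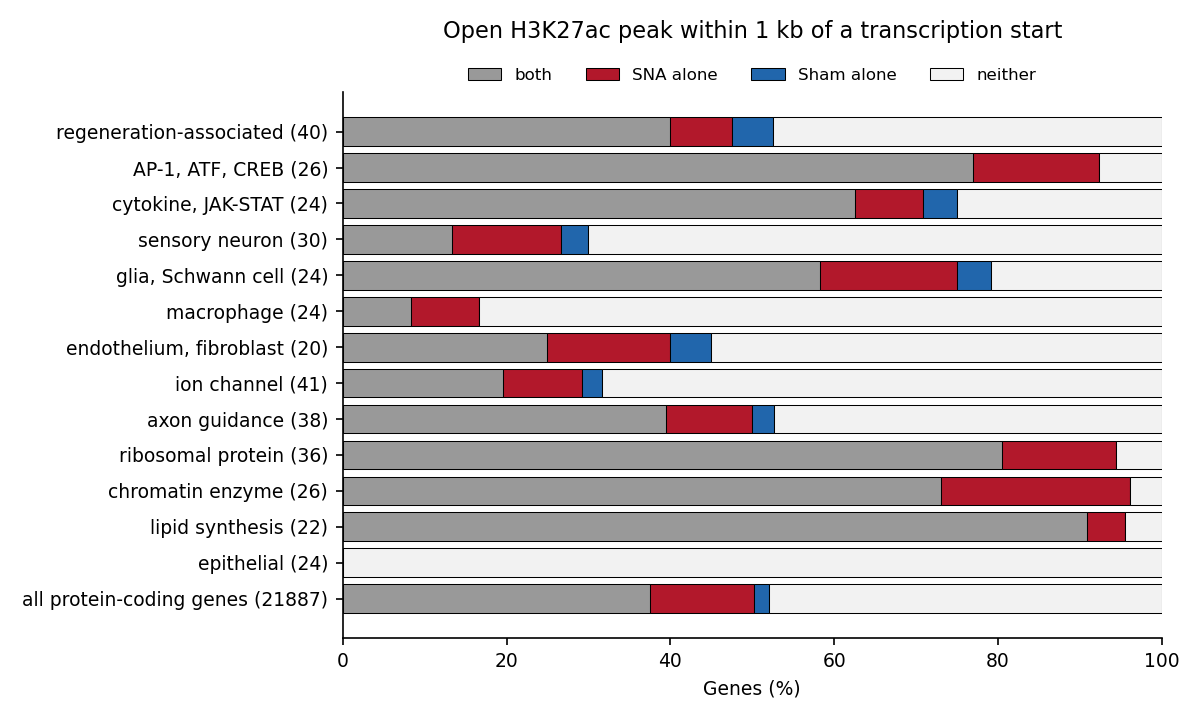
Share of the genes of each list (number of genes in brackets) with an open H3K27ac peak within 1 kb of a transcription start in SNA or Sham, split into genes marked in both, in SNA alone and in Sham alone, and genes with an open peak in neither. Both includes genes where the peak of 1 list lay outside open chromatin. The SNA-alone share was 12.7% of all protein-coding genes and was highest, 23.1%, for chromatin enzymes.

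Distal gains lay mostly inside genes: 68.2% of the 16082 gained distal peaks were within a protein-coding gene, against 65.1% of shared and 65.9% of lost ones. Their median distance to the nearest start was 26.3 kb, against 21.8 kb for shared peaks and 24.5 kb for lost ones. The strongest gained distal peaks were all present in Lam and DCA. They lay 64.1 kb from Cep78 (chr19:16049754-16050786, 54 reads), 8.34 kb from Fcgr4, a receptor for immunoglobulin G on myeloid cells (chr1:171038104-171038557, 51 reads), inside Stard10 (50 reads), inside Rhot1, which tethers mitochondria to transport motors (47 reads), 0.631 kb from Dnajb12 (49 reads) and inside Bicral (46 reads). H3K9ac was already present in Sham at 5 of the 6, all but Bicral.

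Distal places with H3K27ac after SNA in no other list were led by a peak 1.75 kb from Hes1, a repressor downstream of Notch (chr16:30069546-30070092, 33 reads, fold 7.80), where ATAC-seq peaks were present in all 4 surgeries. The others were inside Eva1c, a receptor-like protein of guided axons (35 reads), near Mrps5 (30 reads), inside Col24a1 (29), inside Fam13a (29) and inside Syn3 (30), where the nearest start was that of Timp3, an inhibitor of matrix proteases. Of these 6, SNA had an ATAC-seq peak at 3, those at Hes1, Eva1c and Mrps5, and an H3K9ac peak at 2, those at Eva1c and Mrps5.

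At 1208 gained distal places (7.51%, interval 7.11% to 7.93%) H3K9ac and ATAC-seq also had a peak in SNA and none in Sham, and at 173 (1.08%) they had the reverse. Peaks that were not gained showed the same tilt. Of the distal SNA peaks shared with Sham, 465 (4.39%) had both other assays in SNA only and 52 in Sham only, and of the lost distal peaks 220 (4.13%) had both in SNA only and 32 (0.601%) in Sham only. The ratio was 6.98 at gained, 8.94 at shared and 6.88 at lost places. The SNA lists of H3K9ac (74652 peaks) and ATAC-seq (174605) were longer than those of Sham (50332 and 153556), so the share of gained places was higher but the direction was not particular to them. Of the 1208 places, 530 had no H3K27ac peak in Lam or DCA.

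The strongest of these distal places lay 136 kb from Tle3, a corepressor of the Groucho family (chr9:61554021-61555065, 42 reads), inside Plcb4, a phospholipase C (chr2:135874396-135875676, 36 reads), 10.4 kb from Rab21, which recycles integrins (34 reads), inside Kank2, a regulator of adhesions (37 reads), 424 kb from Arrdc4 (30 reads) and 2.18 kb from Ip6k3, an inositol phosphate kinase (30 reads). The places near Rab21, Kank2, Arrdc4 and Ip6k3 held H3K27ac in Lam and DCA, and those near Tle3 and in Plcb4 in Lam. ATAC-seq had a peak in SNA alone at the place near Arrdc4.

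Lost distal peaks were led by a place 1.97 kb from Kcnk13, a potassium channel gene (chr12:100064656-100065446, 137 reads in Sham), by others inside Senp7, a protease of the SUMO pathway (140 reads), 31.8 kb from Psma6, with the start of Nfkbia, the inhibitor of NF-κB, as the nearest (122 reads), inside Abhd3 (115 reads), near Tmem241 (105 reads) and inside Adgrl2, a latrophilin (fold 26.1). All 6 were present in Lam and DCA. None overlapped a Sham H3K9ac or a Sham ATAC-seq peak, and 5 of them, all but the place near Tmem241, overlapped an ATAC-seq peak of SNA. The places near Psma6 and in Abhd3 also overlapped an H3K9ac peak of SNA, so these assays ran opposite to the H3K27ac call. Loss in all 3 assays was seen at 32 distal places, led by Ttll3, a tubulin glycylase (chr6:113403708-113405077, 42 reads), a place near Syna and Clip2 (22 reads), Septin11 (21), Lifr (22), Siah1a (18) and Rhbdd1 (17).

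Distal peaks were also summed over each gene and 10 kb on either side. Over all protein-coding genes, 60.2% of the open distal SNA peaks counted in this way were gained and 34.6% of the Sham peaks were lost. More were gained than lost at 4742 genes, and fewer at 1563. The genes with the highest excess were long: Arhgap26 (34 gained, 3 lost), Aopep (30 and 0), Prkca (32 and 2), Msi2 (40 and 12), Bcas3 (28 and 1) and Ank3 (29 and 4) spanned 361 to 775 kb. Prkca encodes protein kinase C alpha and Ank3 ankyrin G of the axon initial segment. Prkca went from 14 open distal peaks in Sham to 44 in SNA, with 44 in Lam and 29 in DCA, and Ank3 from 9 to 35, with 32 and 20. Genes with a low balance included 3110082I17Rik (2 gained, 9 lost) with its overlapping neighbour C130050O18Rik (0 and 6), Nfix (1 and 7) with its neighbour Lyl1 (0 and 5), and Arap1 (2 and 7). Nfix, a nuclear factor I protein, went from 20 open distal peaks after Sham to 12 after SNA, while Lam had 26 and DCA 19.

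Within the JAK-STAT list, Lifr and Il6ra had the most gained distal peaks. These are counts, and over all genes 60.2% of the open distal SNA peaks were gained. Cntfr, another receptor gene of the list, gained 5 and lost 4. Lifr, the receptor of leukaemia inhibitory factor, gained 17 distal peaks and lost 3, from 15 open distal peaks in Sham to 31 in SNA, and had 24 in Lam and 16 in DCA. The gained peaks of Lifr held 14 to 24 reads at their summits. Il6ra, the interleukin-6 receptor, gained 10 and lost 0, from 2 in Sham to 12 in SNA, and had 12 in Lam and 4 in DCA. The gained distal peaks of Il6ra held 14 to 29 reads. Il6st, which encodes the shared receptor chain gp130, lost both of its Sham distal peaks, of 20 and 56 reads, and gained 0, with 1 each in Lam and DCA.

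Among the other genes of the list, Jak2, a kinase bound to cytokine receptors, gained 2 peaks of 23 and 20 reads, Ptpn11, the phosphatase SHP2, gained 2 and Osmr, the oncostatin M receptor, gained 2, each from 0 in Sham. Socs2, whose promoter peak was lost, gained 3 distal peaks of 13 to 27 reads. Over the 24 genes of the list, 54 distal peaks were gained and 14 lost, which was 68.4% of the open distal SNA peaks and 35.9% of the Sham ones, against 60.2% and 34.6% over all genes.

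Of the AP-1, ATF and CREB genes, Creb5 gained 4 distal peaks from 0 in Sham, of 13 to 24 reads, and had 5 in Lam and 3 in DCA. Maf gained 4, of 20 to 27 reads, against 1 in Sham. Jun gained 2 within 2.40 kb of its start, of 21 and 35 reads, from 0 in Sham, and had 1 in Lam and 1 in DCA. Fosb and Jund gained 2 each, and no gene of the list lost 2 or more on balance. As a share, 49.1% of the open distal SNA peaks of the list were gained, below the 60.2% of all genes.

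Klf7 gained 9 distal peaks and lost 2, from 7 in Sham to 15 in SNA, and had 9 in Lam and 14 in DCA. The gained distal peaks of Klf7 held 14 to 24 reads, against a median of 18 over all gained distal peaks. Itga7, the integrin of regenerating axons, gained 2 and lost 0. Of the sensory neuron genes, Piezo2 gained 10 distal peaks and lost 0, from 4 in Sham to 14 in SNA, and had 12 in Lam and 4 in DCA. Ntrk2, the receptor of brain-derived neurotrophic factor, gained 8 and lost 4, so its count went from 6 to 11. In the axon guidance list, Sema6d, a transmembrane semaphorin, gained 23 distal peaks and lost 1, the highest balance of any listed gene, and went from 6 to 30, with 19 in Lam and 10 in DCA. The gained peaks of Sema6d held 13 to 37 reads. Sema6a, its close relative, gained 12 and lost 0, from 6 to 17, with 10 in Lam and 6 in DCA. Cacna1c, an L-type calcium channel, gained 11 and lost 1, from 5 to 14, and Lam also had 14. Over the 40 regeneration genes, 40 distal peaks were gained and 11 lost (52.6% of the SNA and 24.4% of the Sham peaks), both below the shares over all genes.

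**Figure D5:**
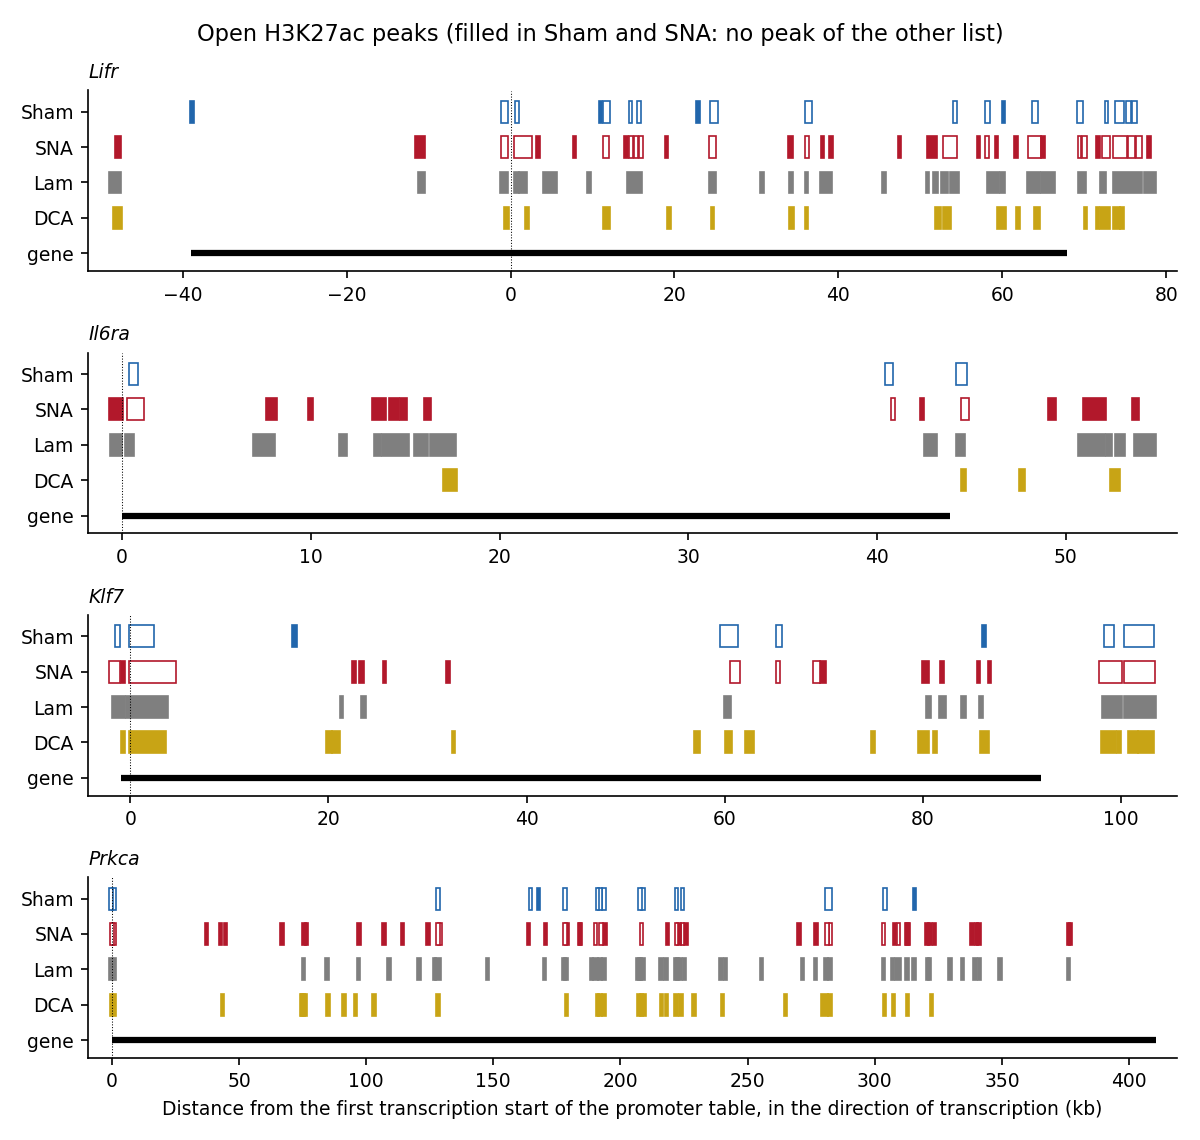
Open H3K27ac peaks of the 4 lists within 10 kb of Lifr, Il6ra, Klf7 and Prkca, by distance in kb from the first start in the promoter table, in the direction of transcription; in Sham and SNA, filled boxes are peaks that overlap no peak of the other list, and very narrow peaks are widened to be visible. Il6ra went from 2 open distal peaks after Sham to 12 after SNA, as many as after Lam.

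Other assays at gained places were compared with those at shared places. At gained promoters 64.1% overlapped a Sham H3K9ac peak and 68.2% an SNA one, against 83.9% and 87.4% at shared promoters. At gained distal places the shares were 41.7% and 61.6%, against 72.6% and 85.4% at shared ones, and at lost distal places 15.4% and 24.7%. ATAC-seq in the surgery's own list covered 56.3% of gained distal peaks in SNA and 42.6% of lost distal peaks in Sham. A share of gained and lost places was thus open in another surgery than the one that carried the mark.

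Motif matches in the 250 bases before the start were no more frequent for AP-1 at starts marked in SNA alone than at starts marked in both lists. TGANTCA, on either strand, was found in 3.89% of 2827 SNA-alone starts (interval 3.24% to 4.67%), 3.91% of starts marked in both, 6.45% of 372 Sham-alone starts and 6.13% of all 21263 starts. TGACGTCA was found in 2.19% of the SNA-alone starts (interval 1.71% to 2.80%), 2.88% of those marked in both and 1.92% of all. TTCCNGGAA was found in 1.27% of the SNA-alone starts (36 starts) and in 202 of all starts, with intervals of 0.921% to 1.76% and 0.828% to 1.09%. GGGGCGGGG was found in 20.8% of SNA-alone starts, 20.9% of those marked in both, 17.5% of Sham-alone starts and 13.9% of all, and CCAAT in 37.4%, 34.2%, 29.8% and 35.4%. GC content differed between these groups of starts, and its part in the shares was not tested. A match is a run of letters in this window and not a bound site.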

How the data were processed

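H3K27ac, H3K9ac and H3K27me3 ChIP-seq and ATAC-seq of mouse dorsal root ganglia were deposited as 16 lists of peaks, 1 per assay and surgery, on mm10 per the submitters' processing notes. The aligner and peak caller are not given in the sources used here, and the lists as deposited pool the replicates of a surgery. Each peak carries a fold enrichment and −log10 p and q values as deposited by the authors. From these, whole reads at the summit were recovered for Sham and SNA under the relation fold = (scale × reads + 1) / (scaled background + 1). A Poisson p was matched within 0.003 for 100% of peaks. The scale was the one that matched best, 1 for Sham and 0.7589 for SNA. Library totals are not known, so read numbers are not compared between lists. Starts came from RefSeq promoters (GRCm38.p6) for 17492 of 21887 protein-coding genes. For the other 4395, with no strand given, both gene ends were used, so a promoter peak there may lie at the far end. The named genes of this kind included Spi1, Tlr4, Piezo2, Myh11, Vwf, Kat6a, Ntn1, Rpl30, Rps20, Socs2 and Mbp. Overlap of 1 bp or more counted as shared. Intervals are Wilson intervals at 95%. With 1 list per surgery no test was possible. The peaks named are the top 6 by −log10 p in each class, among those in no other H3K27ac list, and among those where H3K9ac and ATAC-seq changed alike; genes named are the top 6 and last 6 by gained minus lost distal peaks, the members of 13 gene lists with a promoter peak in 1 of the lists, and members of the regeneration, AP-1, JAK-STAT and sensory neuron lists with a balance of 2 or more distal peaks. Sema6d, Sema6a, Cacna1c and the genes given as examples of marked or unmarked promoters were chosen after their values were seen. Some genes that this rule names are not reported here. The part of the data, its members and the lists were chosen with earlier results of these data known. The overlap functions were tested on simulated peaks, and the read recovery was not tested in this way. Python 3.11.15, numpy 2.4.6, pandas 2.3.3, scipy 1.17.1 and matplotlib 3.10.9 were used.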

Additional observations from a re-analysis of the deposited data

How the results depend on the processing

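The shares depend on the overlap rule and on list length. When each of the lists was cut to peaks whose −log10 q reached 5, the gained shares were 51.1% (promoter) and 60.1% (distal). The lost shares were then 23.0% and 54.7%, and 886 genes were marked in Sham alone. With that limit on the queried list only, the gained shares were 31.4% and 34.9%, against 31.4% and 35.0% for Lam against Sham, the lost shares 7.66% and 36.5%, and the genes 1541 (SNA alone) and 203 (Sham alone). With a reciprocal overlap of 50%, the gained shares were 62.3% and 81.9% and the lost shares 38.2% and 68.7%. With peaks within 1 kb also counted as shared they were 24.4%, 43.8%, 4.56% and 24.6%. With the ATAC-seq list of the same surgery they were 41.2%, 55.5%, 8.47% and 27.2%. With equal numbers of open peaks they were 36.6%, 47.1%, 21.8% and 52.7%, with 1095 genes in Sham alone. A promoter window of 5 kb gave 44.6%, 61.2%, 13.6% and 35.5%. With either end of every gene as a start the gained distal share was 59.5% and the lost shares were 11.3% and 32.9%. The gained promoter share stood at or above the value for Lam against Sham in 8 of 8 alternatives, the gained distal share in 7, the lost promoter share in 6 and the lost distal share in 8, and the genes in SNA alone in 6 and in Sham alone in 7. The causes of these changes were not tested. No paired analysis was possible because each list pools all replicates of its surgery, and for the same reason no replicate could be left out.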
